A study of Homo sapiens with 2 samples.

Results

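The p53 core and target genes described here are 31 genes of the p53 pathway: feedback inhibitors of p53, its 2 paralogues, and transcriptional targets that act in growth arrest, apoptosis, DNA repair and metabolism. They were given as a list of gene names, and no measured level served as a rule for the choice. Earlier results of these data were known when the list was chosen. All 31 were found in both libraries, among 29876 named genes. RNA came from the G1S-CCPM-Cas9 line, a recombinant derivative of the human bone osteosarcoma line U2OS. The line carries a cell cycle marker for the G1 and S phases and stably makes the nuclease Cas9 from a CAG promoter. Both libraries were made from poly(A) RNA of untreated cells grown in geneticin at 500 µg/mL, so they form 1 group of 2 replicates, with no other condition to compare. Whether the line is 1 clone, and whether the replicates grew as separate cultures, is not said in the sources used here. The SD between them may therefore be purely technical.

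The transcription factor p53 is kept scarce in unstressed cells by the ubiquitin ligase MDM2, itself a p53 target, and by the related protein MDM4. Upon DNA damage or other stress p53 accumulates, binds DNA as a tetramer at paired copies of a 10-base motif, and switches on genes that halt the cell cycle, repair DNA, alter metabolism or start apoptosis. U2OS cells are widely used as an osteosarcoma model in which the p53 gene is not mutated.

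Promoter sequences of 300 bases, from 250 bases before to 50 after an annotated transcript start, were available for 26 of the 31 genes in RefSeq (build GRCh38.p14), in 39 windows. GADD45A, PHLDA3, TP53INP1, TNFRSF10B and RRM2B are named only. The p53 consensus decamer was searched in every window; its reverse complement is the same motif, so 1 scan covers both strands, and a full site is 2 decamers separated by a spacer of 0 to 13 bases. Of the windows, 6 are printed 5′ to 3′, chosen after the search. Those of DDB2, TP73 and the intronic MDM2 start hold the closest matches to a full site, and those of FDXR and SESN1 hold a single decamer. The upstream MDM2 window is printed because the gene's starts differ. AEN, PLK2 and FAS also have a window with a single decamer, which is not printed. Capitals mark decamers that match the consensus at every base and full sites with at most 1 mismatch in each decamer. Here and below, an allowed mismatch could not fall on the C or the G that the consensus fixes. The MDM2 windows are chr12:68807922-68808221 and chr12:68808767-68809066, the DDB2 window is chr11:47214724-47215023 and the TP73 window is chr1:3690422-3690721, all on the plus strand. The FDXR window is chr17:74872945-74873244 and the SESN1 window is chr6:109008939-109009238, both on the minus strand.
MDM2 upstream start: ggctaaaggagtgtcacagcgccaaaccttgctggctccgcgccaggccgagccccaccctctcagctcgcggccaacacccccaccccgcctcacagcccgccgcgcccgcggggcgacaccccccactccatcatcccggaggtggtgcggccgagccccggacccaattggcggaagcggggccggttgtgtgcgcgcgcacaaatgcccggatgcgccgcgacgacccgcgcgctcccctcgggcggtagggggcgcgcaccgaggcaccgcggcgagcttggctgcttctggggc
MDM2 intronic start: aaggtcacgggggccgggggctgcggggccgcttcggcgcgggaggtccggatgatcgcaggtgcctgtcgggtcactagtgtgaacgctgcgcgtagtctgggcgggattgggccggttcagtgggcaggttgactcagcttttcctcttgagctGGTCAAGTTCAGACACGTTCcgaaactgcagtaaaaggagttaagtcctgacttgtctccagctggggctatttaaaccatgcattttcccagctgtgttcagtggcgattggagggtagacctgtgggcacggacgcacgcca
DDB2: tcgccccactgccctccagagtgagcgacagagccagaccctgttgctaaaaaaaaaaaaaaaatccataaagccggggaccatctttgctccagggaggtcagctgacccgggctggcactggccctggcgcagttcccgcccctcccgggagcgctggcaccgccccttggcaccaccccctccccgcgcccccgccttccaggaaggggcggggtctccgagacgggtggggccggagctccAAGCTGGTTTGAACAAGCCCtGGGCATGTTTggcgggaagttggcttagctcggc
FDXR: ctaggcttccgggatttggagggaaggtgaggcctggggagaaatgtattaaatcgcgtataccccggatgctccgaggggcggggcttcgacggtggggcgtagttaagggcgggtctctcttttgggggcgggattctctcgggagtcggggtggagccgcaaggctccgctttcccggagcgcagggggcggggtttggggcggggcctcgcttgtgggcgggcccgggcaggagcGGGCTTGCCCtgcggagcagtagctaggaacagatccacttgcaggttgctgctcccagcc
TP73 internal start: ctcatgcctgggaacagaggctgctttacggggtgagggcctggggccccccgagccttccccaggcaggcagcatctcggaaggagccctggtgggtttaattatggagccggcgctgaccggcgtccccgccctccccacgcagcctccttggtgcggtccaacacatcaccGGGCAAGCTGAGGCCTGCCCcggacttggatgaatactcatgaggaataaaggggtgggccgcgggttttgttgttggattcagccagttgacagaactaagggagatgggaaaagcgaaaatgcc
SESN1 innermost start: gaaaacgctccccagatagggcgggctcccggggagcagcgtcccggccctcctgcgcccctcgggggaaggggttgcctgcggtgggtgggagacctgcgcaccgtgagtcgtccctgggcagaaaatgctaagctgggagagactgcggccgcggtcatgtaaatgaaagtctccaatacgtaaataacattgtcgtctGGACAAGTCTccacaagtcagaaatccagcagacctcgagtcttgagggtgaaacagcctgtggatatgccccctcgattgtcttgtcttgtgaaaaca

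Of the 31 genes, 29 were detected, that is, listed at 1 FPKM or more in each library, while 39.6% of all named genes were. FPKM is the authors' value per gene, in fragments scaled to transcript length and to the mapped fragments of the library, so levels can be set side by side between genes. The median level over all 31 genes was 32.9 FPKM, and over all detected genes the median was 11.8 FPKM. Of the 31 genes, 26 stood above that median. All 5 listed mesenchymal genes were detected, with means of 66.9 FPKM for THY1 to 2719 FPKM for LGALS1. None of 4 blood markers or 3 endothelial markers was, their highest means being 0.155 FPKM for PTPRC and 0.370 FPKM for VWF.

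**Figure D1:**
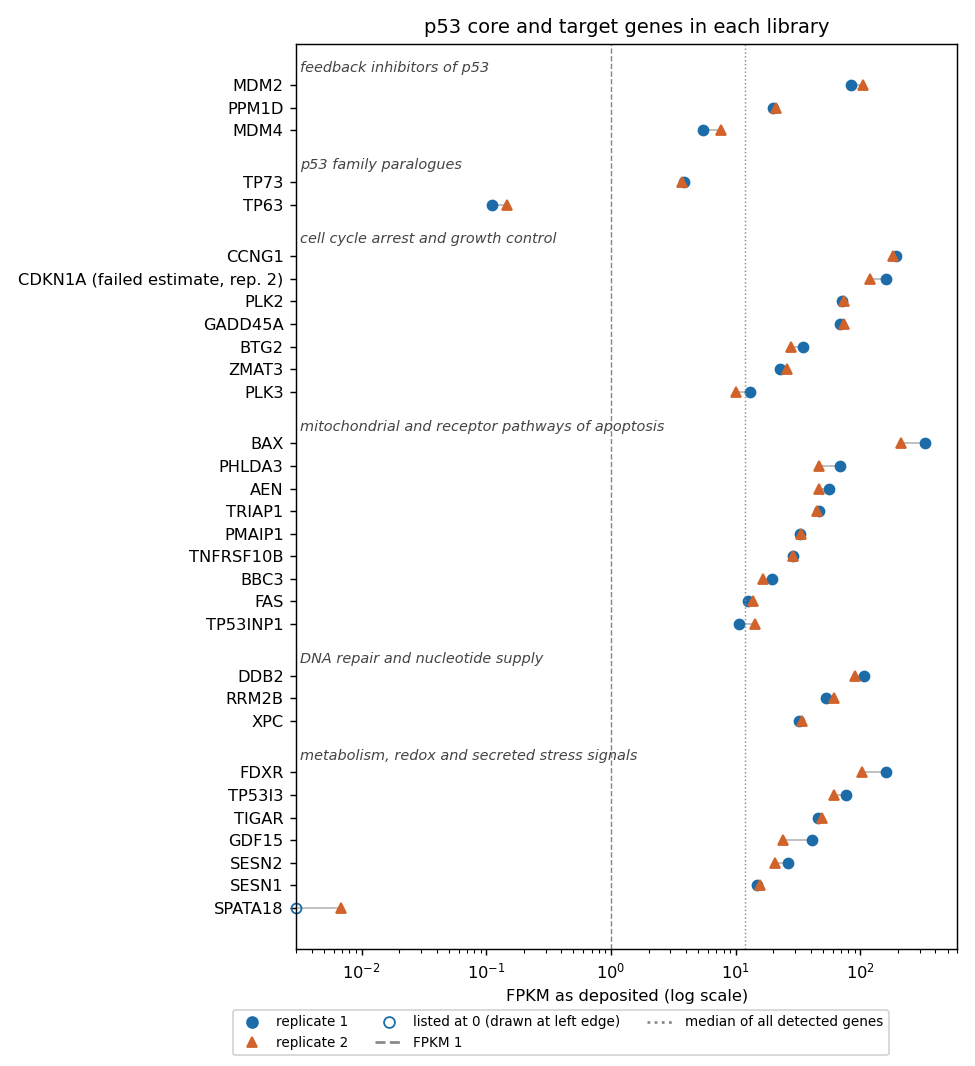
Level of each of the 31 p53 genes in FPKM (log scale) in replicate 1 (circles) and replicate 2 (triangles), grouped by role; the dashed line marks 1 FPKM and the dotted line the median of all detected genes, 11.8 FPKM. BAX stands highest and only TP63 and SPATA18 lie below 1 FPKM; the circle at the left edge is a value listed at 0.

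The 3 feedback inhibitors were all detected, at levels far apart. MDM2, which marks p53 for degradation (GRCh38 chromosome 12, 68808172 to 68845544, plus strand), stood at 84.1 FPKM in replicate 1 and 105 FPKM in replicate 2, a mean of 94.7 ± 14.9 (SD, n = 2). Of all detected genes, 93.6% were lower than MDM2. MDM4, a paralogue of MDM2 that masks the activation domain of p53, was listed at 5.43 and 7.60 FPKM, a mean of 6.51 ± 1.53, and only 32.1% of detected genes were lower. MDM2 was thus 15.5 times as high as MDM4 in replicate 1 and 13.8 times as high in replicate 2. On the log2 scale the difference in level was 3.87 ± 0.12 (SD, n = 2). PPM1D, a phosphatase that removes activating phosphate groups from p53 and its kinases, lay between them at 19.8 and 21.2 FPKM.

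Of the p53 paralogues 1 was detected. TP73 was listed at 3.82 and 3.68 FPKM (3.75 ± 0.0999, SD, n = 2), so it was detected at a steady low level. TP63, which is best known from squamous and basal epithelia, was listed at 0.111 and 0.147 FPKM, under the detection level in both libraries.

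All 7 genes of cell cycle arrest and growth control were detected. CCNG1, an atypical cyclin that works with a phosphatase in p53 feedback, was the second highest of the 31 at 192 and 182 FPKM (187 ± 7.47, SD, n = 2). CDKN1A, which encodes the cyclin-dependent kinase inhibitor p21 (chromosome 6, from 36676460), was listed at 159 FPKM in replicate 1 and 120 FPKM in replicate 2. The authors' software marked the CDKN1A estimate of replicate 2 as failed, so its bounds were not used and its mean of 140 ± 27.9 rests on 1 sound estimate. It was the only one of the 31 genes with such a status.

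The other 5 arrest genes spanned a range from near the median of detected genes to several times higher. The polo-like kinase PLK2 stood at 71.5 and 73.5 FPKM and its paralogue PLK3 at 13.03 and 10.06 FPKM. PLK2 was 5.49 and 7.31 times as high as PLK3, a difference in level of 2.66 ± 0.29 on the log2 scale (SD, n = 2). GADD45A, a stress sensor that binds PCNA and kinases, was listed at 68.2 and 73.5 FPKM, in the same range as PLK2. The antiproliferative gene BTG2 stood at 34.6 and 27.9 FPKM. ZMAT3, an RNA-binding zinc finger protein, stood at 22.7 and 25.6 FPKM, below BTG2 in each library.

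All 9 apoptosis genes were detected, and their levels ran from the top of the list to near the median of detected genes. BAX, the pore-forming protein of the outer mitochondrial membrane (chromosome 19, 48954860 to 48961798, plus strand), was the highest of the 31 at 327 and 212 FPKM (270 ± 80.7, SD, n = 2), above 98.2% of detected genes. Part of this locus value came from a short transcript at the 3′ end that Cufflinks assembled, 469 bases long (48961330 to 48961798) with 145 FPKM in replicate 1 and 473 bases long with 80.8 FPKM in replicate 2. It held 44.5% and 38.0% of the locus value, and without it the reference transcripts of BAX summed to 181 and 132 FPKM (156 ± 35.0). Taken that way, BAX would stand below CCNG1 in each library.

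The BH3-only genes, whose products free BAX from its inhibitors, were much lower than BAX. PMAIP1, which encodes NOXA, was listed at 32.5 and 33.2 FPKM, and BBC3, which encodes PUMA, at 19.4 and 16.5 FPKM. BBC3 was 0.597 and 0.498 times the level of PMAIP1. Of the death receptors, TNFRSF10B, which binds the ligand TRAIL, stood at 28.6 and 28.8 FPKM, between PMAIP1 and BBC3. FAS was listed at 12.6 and 13.6 FPKM, below TNFRSF10B and both BH3-only genes in each library.

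The other apoptosis genes included both promoters of cell death and a survival factor. PHLDA3, an inhibitor of the kinase AKT, stood at 68.2 and 46.8 FPKM, and the nuclease gene AEN at 56.1 and 46.5 FPKM. In replicate 1 only, the PHLDA3 locus included an assembled transcript of 3203 bases that held 9.55% of its value. Reference transcripts of PHLDA3 alone summed to 61.6 and 46.8 FPKM. TRIAP1, a small mitochondrial protein that protects from apoptosis, was listed at 46.9 and 44.7 FPKM. TP53INP1, a stress protein of autophagy and cell death, was the lowest of the 9 by mean level, at 10.6 and 14.2 FPKM, though FAS was lower in replicate 2.

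The 3 genes of DNA repair and nucleotide supply were all above the median of detected genes. DDB2, which finds ultraviolet lesions (chromosome 11, from 47214465), stood at 106 and 90.2 FPKM (98.1 ± 11.2, SD, n = 2). XPC, which acts after DDB2 in nucleotide excision repair, stood at 32.4 and 34.1 FPKM, so XPC was 0.306 and 0.379 times the level of DDB2. RRM2B, the p53-inducible subunit of ribonucleotide reductase, was listed at 53.3 and 61.2 FPKM, between them in both libraries.

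Of the 7 genes of metabolism, redox control and secreted signals, 6 were detected. FDXR, the mitochondrial ferredoxin reductase (chromosome 17, from 74862497), was highest at 162 and 104 FPKM (133 ± 41.3, SD, n = 2). TP53I3, a quinone oxidoreductase, stood at 76.8 and 61.7 FPKM and TIGAR, a phosphatase that lowers glycolytic flux, at 45.5 and 48.9 FPKM. FDXR had the widest gap between libraries of these 3 and TIGAR the narrowest. GDF15, a secreted stress cytokine, was listed at 41.1 and 24.0 FPKM. The sestrins, which restrain the growth kinase complex mTORC1, stood at 26.1 and 20.8 FPKM for SESN2 and at 14.7 and 15.6 FPKM for SESN1. SESN2 was higher in both libraries, by 0.62 ± 0.29 on the log2 scale (SD, n = 2), a smaller difference in level than between the MDM or PLK paralogues. SPATA18, a gene of mitochondrial quality control, was listed at 0 in replicate 1 and at 0.00684 FPKM in replicate 2.

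Ordered by mean level, the 31 genes form 30 neighbouring pairs, and in 18 pairs the values of the libraries overlapped, so their order is not fixed beyond the spread. Steps larger than the spread lay at both ends: BAX over CCNG1 and CCNG1 over CDKN1A at the top, and PLK3 over MDM4, MDM4 over TP73, TP73 over TP63 and TP63 over SPATA18 at the bottom. The top steps have limits: from reference transcripts alone BAX was below CCNG1 in both libraries, and the CDKN1A value of replicate 2 has a failed status. Between these, the library values did not overlap for MDM2 over PLK2, TRIAP1 over XPC and TNFRSF10B over ZMAT3. Nor did they for PPM1D over BBC3, BBC3 over SESN1 and SESN1 over FAS. The deposited bounds did overlap for PPM1D and BBC3 in replicate 1, and for BBC3 and SESN1 in replicate 2. CDKN1A, FDXR, DDB2 and MDM2, ranks 3 to 6, overlapped from neighbour to neighbour.

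Among the detected p53 genes the low band was thinly filled. MDM4 and TP73 were the only 2 of the 29 with a mean of 1 to 10 FPKM, which is 6.90% of them, while 44.8% of all detected genes lay there. In the band of 50 to 100 FPKM were 8 of the 29, or 27.6%, and 7.30% of all detected genes. The 4 genes at 100 FPKM or more, BAX, CCNG1, CDKN1A and FDXR, were 13.8% of the 29, and 5.92% of all detected genes stood so high. These shares describe the list, and no test was made of it.

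**Figure D2:**
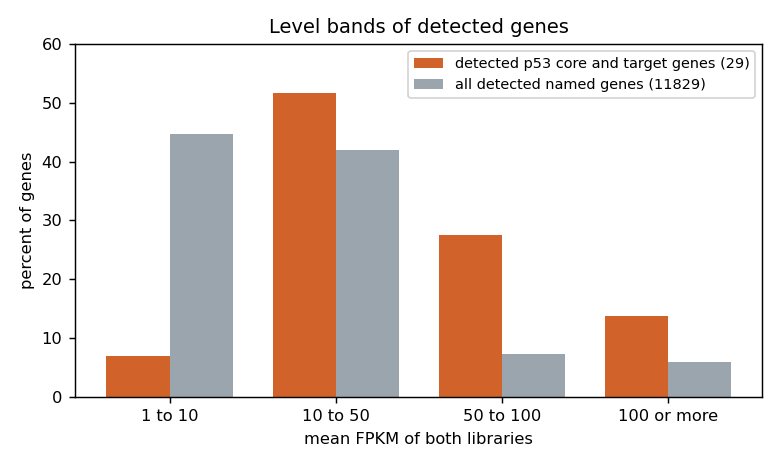
Percent of genes by band of mean FPKM for the 29 detected p53 genes (orange) and all 11829 detected named genes (grey). The lowest band holds 6.90% of the p53 genes and 44.8% of all detected genes, and the band of 50 to 100 FPKM holds 27.6% and 7.30%.

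Between the libraries, none of the 29 detected p53 genes differed by 2-fold or more with deposited confidence bounds apart, a rule that 1.16% of all 12466 genes at 1 FPKM or more in either library met (0.473% as higher in replicate 2 and 0.682% as lower). Levels were compared as log2 of (FPKM + 1) in replicate 2 over replicate 1, a scale that understates differences of low genes. At a bar of 1.5-fold the rule took in 3 of the 29, GDF15 at -0.75, FDXR at -0.64 and BAX at -0.62, all lower in replicate 2, while 5.25% of all genes met it. At any size of difference 15 of the 29 were lower in replicate 2, as were 55.8% of all genes. The bounds alone were apart for 17 of the 28 p53 genes that had bounds in both libraries, 6 of them higher in replicate 2 and 11 lower, and for 56.0% of all genes with bounds. The bounds cover estimation within a library only, so that share gives how often they are apart in replicates of 1 group.

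At the other end, MDM4 (0.42), TP53INP1 (0.38) and MDM2 (0.32) had the highest ratios, and the 3 feedback inhibitors were all higher in replicate 2. They stayed so with FPKM rescaled to a common sum (0.58 for MDM4, 0.50 for MDM2 and 0.27 for PPM1D) and with the trend over transcript length removed (0.18, 0.17 and 0.05). GDF15, FDXR and BAX were lower in replicate 2 under both of these settings too, but all 3 then missed the bar of 1.5-fold (0.58 on the log2 scale), at -0.57, -0.46 and -0.44 after rescaling and at -0.50, -0.47 and -0.33 without the trend. From its reference transcripts alone, at 132 FPKM in replicate 2 and 181 FPKM in replicate 1, BAX missed the bar as well. Rescaling moved the median ratio of all genes by 0.16. The median ratio of the 29 p53 genes was -0.04, as was that of all tested genes, and 14 of the 29 lay below that of all genes. The SD of the ratio was 0.31 over the p53 genes and 0.56 over all tested genes. These sets differ in level: 6.90% of the 29 and 44.8% of all detected genes had means of 1 to 10 FPKM. The part of level in the SD was not tested.

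Transcript properties moved with these ratios. Over the 29 p53 genes Spearman's rho with the ratio was 0.71 for the length of the longest reference transcript and -0.77 for GC content. Over all tested genes it was 0.44 for length (n = 12466) and -0.59 for GC content (n = 11334). The points share the same 2 libraries, no p is given, and the part of length and GC content in the differences was not tested. By longest reference transcript, GDF15 and BAX, lower in replicate 2, are short, and MDM4 and MDM2, higher in replicate 2, are long. The leading transcripts of MDM4 and MDM2 are shorter, at 2819 and 1709 bases. Some genes went the other way, such as GADD45A (1380 bases, ratio 0.11) and SESN2 (3528 bases, ratio -0.31).

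**Figure D3:**
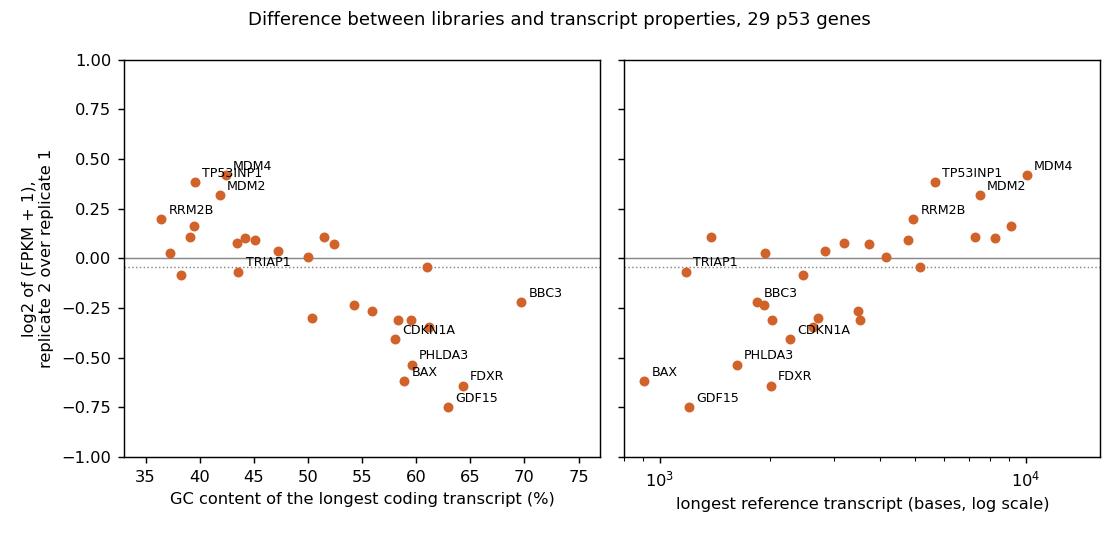
Log2 ratio of (FPKM + 1), replicate 2 over replicate 1, of the 29 detected p53 genes against the GC content of the longest coding transcript (left, percent) and the length of the longest reference transcript (right, bases, log scale); the dotted line is the median of all tested genes, -0.04. Ratios are lower at high GC content (rho -0.77) and higher for long transcripts (rho 0.71).

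The deposited transcript tables hold 137 reference transcripts of the 31 genes. Of the 29 detected genes, 6 had 1 reference transcript and 23 had several, and in 20 of these 23 the same transcript led in both libraries. The exceptions were CCNG1, TP73 and ZMAT3. Among the 20, CDKN1A had transcript estimates of failed status in replicate 2. For CCNG1 the leading transcript held 65.3% of the reference FPKM in replicate 1, and in replicate 2 the other one led with 59.2%. Such transcripts share most of their bases, and their shares are estimates by the authors' software.

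Annotated starts (grouped where they lie within 250 bases) were compared for the 14 detected genes that have several. In 7 of them, MDM4, PLK3, BBC3, FAS, AEN, DDB2 and FDXR, 1 start held all reference FPKM in both libraries. In the other 7, several starts were in use, and for CDKN1A, ZMAT3, RRM2B and SESN1 their shares differed by less than 2 percentage points between libraries. For CDKN1A, the transcript estimates of replicate 2 had a failed status.

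MDM2 transcripts came from 3 starts. The upstream start (68808172) held 24.6% of the reference FPKM in replicate 1 and 16.5% in replicate 2, or 20.7 and 17.3 FPKM. The start within the first intron (68809017), known as the p53-responsive promoter of MDM2, held 34.0% and 37.7%, or 28.6 and 39.6 FPKM. The intronic start was thus higher than the upstream start in both libraries. The remaining 41.4% and 45.8% were assigned to a single predicted transcript of 1709 bases that begins further inside the gene (68814612), at 34.9 and 48.2 FPKM. That model is much shorter than the 7495 and 7104 bases of the other 2 transcripts in use.

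CDKN1A transcripts were assigned mainly to the upstream start group (36676460 to 36676490), with 85.5% and 86.8%, or 136 and 104 FPKM. The downstream start held 14.5% and 13.2%. Every CDKN1A transcript estimate of replicate 2 was marked as failed, so only the shares of replicate 1 rest on sound estimates. In SESN1 the middle start (109009555) held 82.4% and 81.9%, the far upstream start (109094505) 17.6% and 18.1%, and the innermost start (109008988), whose window is printed above, was listed at 0 in both libraries. TP53I3 had 74.1% and 66.6% at its downstream start (24084331). ZMAT3 had 88.9% and 89.0% at its innermost start, and RRM2B had 66.2% and 65.1% at its outer one. In each of these genes the same start led in both libraries, for CDKN1A by failed estimates in replicate 2.

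The libraries went apart for TP73. All of its reference FPKM was assigned to the first start (3652565) in replicate 1, at 3.82 FPKM. In replicate 2 that start held 47.3%, at 1.74 FPKM, and a start further inside the gene (3698046) held 52.7%, at 1.94 FPKM. The internal start in between (3690672), which gives the N-terminally truncated ΔN forms that inhibit p53, was listed at 0 in both libraries, for 6 transcripts. TP63, far under the detection level, likewise had its FPKM at different starts in the libraries.

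**Figure D4:**
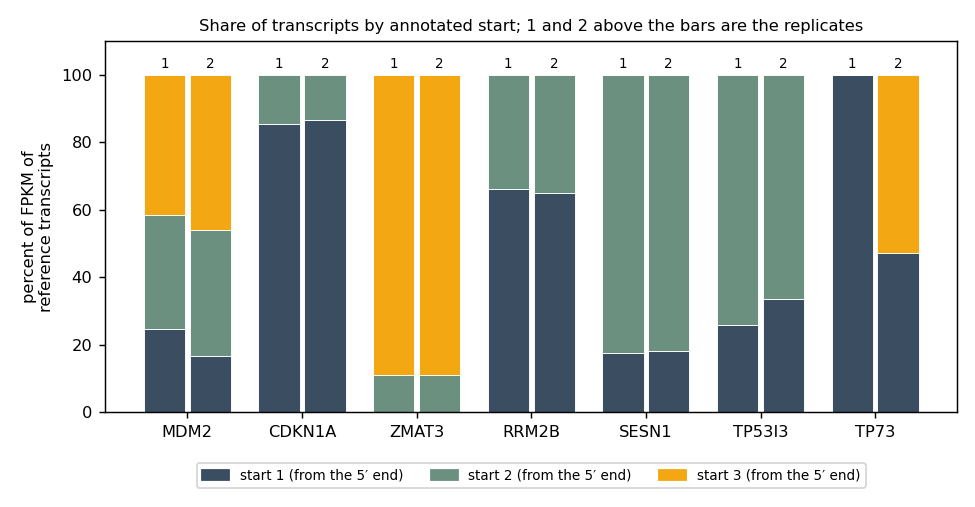
Percent of reference FPKM assigned to each annotated transcript start, counted from the 5′ end, in replicate 1 (left bar of each pair) and replicate 2 (right bar), for the 7 detected genes with several starts in use. MDM2 uses 3 starts in both libraries, and TP73 is the gene in which the bars differ most, 100% and 47.3% at the first start. The CDKN1A estimates of replicate 2 had a failed status.

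A decamer that matches the p53 consensus at every base was present in windows of 6 genes, DDB2, FDXR, AEN, PLK2, FAS and SESN1. These were 6 of 39 windows, or 15.4%, while 6.63% of all 35116 promoter windows and 5.62% of those of detected genes hold it. By gene, the shares were 23.1% of the 26 and 8.06% of all genes with windows. With 1 mismatch allowed outside the fixed C and G, 61.5% of the 39 windows and 45.1% of all windows hold a match. Some genes have several windows that overlap. Counted by gene, these shares were closer, 57.7% of the 26 and 50.1% of all genes with windows. A match is a description of letters and no evidence of binding.

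A full site without mismatch was found in DDB2 alone of the 26 genes, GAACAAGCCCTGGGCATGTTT at chr11:47214979-47214999, with a spacer of 1 base. Only 10 of all 35116 windows hold such a site. It lies after both DDB2 starts in use, 37 bases from the one (47214942) at 92.0 and 90.2 FPKM and 10 bases from the one (47214969) at 14.0 FPKM in replicate 1 and 0 in replicate 2. In capitals in the DDB2 sequence above, a further decamer with 1 mismatch directly precedes it.

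Full sites with at most 1 mismatch in each decamer were found in 3 genes and 4 windows, 10.3% of the 39, against 1.84% of all windows. The same MDM2 site lies in the overlapping windows of starts 68809017 and 68809024, so the window count holds it more than once. By gene the shares were 11.5% of the 26 and 2.28% of all genes with windows. Besides DDB2, these were the intronic start of MDM2, with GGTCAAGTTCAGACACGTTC at chr12:68808923-68808942, and the internal start of TP73, with GGGCAAGCTGAGGCCTGCCC at chr1:3690596-3690615. The MDM2 site ends before the start, its first base lying 94 bases upstream, and transcripts from that start were at 28.6 and 39.6 FPKM. The upstream MDM2 window holds no such site and carried 20.7 and 17.3 FPKM. The TP73 site lies 76 bases before a start listed at 0 in both libraries, so these similar sites stood at starts with very different levels.

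The single decamers were also found at starts of unlike level. The FDXR decamer, GGGCTTGCCC (chr17:74872996-74873005), lies 26 bases after the main start in use (74873031), which carried 119 and 76.5 FPKM, and 29 bases before a lesser one (74872976) at 43.2 and 27.0 FPKM. AEN has the same 10 letters, 10 bases after its only start in use (88621296), at 56.1 and 46.5 FPKM. PLK2 has AGACTTGCTT 79 bases before its start in use (58460139), at 71.5 and 73.5 FPKM. For FDXR, AEN and PLK2, matches thus lay on either side of the starts in use. FAS has GGACAAGCCC (chr10:88991309-88991318) in a window where no listed transcript starts. Its only start in use (88990531) lies further upstream, outside that window. SESN1 has GGACAAGTCT 49 bases before its innermost start (chr6:109009028-109009037), which was listed at 0. The only CDKN1A window available covers the downstream start, which carried 23.2 and 15.8 FPKM, the latter with a failed status. It holds no decamer even with 1 mismatch outside the fixed C and G. No window was at hand for the upstream start group that held most of the FPKM. BAX, CCNG1 and GDF15 hold no exact decamer in their windows.

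Among the 31 genes, 3 overlap another gene on the opposite strand, and whether strand was used in counting is not given in the sources used here. FAS, at 12.6 and 13.6 FPKM, shares 21595 bases with ACTA2, listed at 11.6 and 12.3 FPKM. Most of that stretch belongs to a FAS transcript listed at 0. The FAS transcript in use starts at 88990531, and ACTA2 ends at 88991390. TNFRSF10B shares 67 bases with RHOBTB2 (5.83 and 5.97 FPKM), and SPATA18 shares 989 bases with SGCB (10.5 and 11.5 FPKM). The part of these overlaps in the values was not tested.

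Other genes of the pathway were compared as lists. All 26 listed regulators of p53 were detected, while 39.6% of all named genes were. Their median level was 20.6 FPKM. The highest by mean were the ribosomal proteins RPL11 at 1592 and 1378 FPKM and RPL5 at 1095 and 1045 FPKM, both of which bind MDM2 when ribosome assembly is disturbed. NPM1, a nucleolar chaperone, stood at 1107 and 1011 FPKM, above RPL5 in replicate 1, TRIM28, a partner of MDM2, at 126 and 98.4 FPKM, and the arginine methyltransferase PRMT5 at 78.0 and 63.2 FPKM. None of the 26 differed between the libraries by the 2-fold rule, 12 being higher in replicate 2 and 14 lower. Of all tested genes, 1.16% differed and 55.8% were lower in replicate 2, so the absence of calls sets these 26 apart from no other genes.

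Of 50 further p53 targets, 45 were detected, while 39.6% of all named genes were. The median level over all 50 was 16.7 FPKM. The 14-3-3 protein gene SFN was highest at 344 and 254 FPKM. The replication clamp PCNA stood at 204 and 210 FPKM, RPS27L at 199 and 183 FPKM and the semaphorin receptor PLXNB2 at 125 and 112 FPKM. By mean level SFN was above all 31 genes of the main list, and PCNA and RPS27L were above all of them except BAX. The 5 below detection included the mitochondrial protein gene TP53AIP1 (0.0598 and 0.0325 FPKM) and IGFBP3 (0.0489 and 0.0339). The others were the TRAIL receptors TNFRSF10A (0 and 0.00879) and TNFRSF10D (0 and 0.00408), and SCO2, a factor of cytochrome oxidase assembly. SCO2 was at 0 in both libraries, but this is a summed value without bounds, not the deposited value of a locus of its own. Whether SCO2 is silent in these cells was not tested. A further TRAIL receptor on this list, TNFRSF10C, chosen for mention after its values were seen, was detected at 2.83 and 3.34 FPKM, below the 28.6 and 28.8 FPKM of TNFRSF10B. None of the 45 differed between the libraries by the 2-fold rule, 17 being higher in replicate 2 and 28 lower, while 1.16% of all tested genes differed and 55.8% were lower in replicate 2.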

How the data were processed

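Poly(A) RNA of 2 libraries was measured. Per the submitters' processing notes, Cufflinks 2.2.1, TopHat2 2.0.13, Trimmomatic 0.32, Bowtie2 2.2.3 and FastQC 0.11.2 were used with build GRCh38. Their settings, the annotation release and any use of strand are not given in these sources. Per the file headers, the authors deposited FPKM of genes and transcripts, each with confidence bounds and a status. Read coverage of transcripts was deposited as well. Relative to FPKM its median was 5.78 in replicate 1, against 5.57 in replicate 2. Absolute depth is unknown.

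Genes were named by RefSeq accession (GRCh38.p14 gene table, then GENCODE 29) and otherwise by the name in the files. A gene's level is the deposited value of its locus. Where the locus holds other named genes as well, the level is the sum of the gene's own transcripts. Values at several loci of a gene were summed. Summed values, such as those of PTPRC and SCO2, have no bounds. Locus starts, which the files count from 0, are printed with 1 added. Ratios are log2 of (FPKM + 1), over genes at FPKM 1 or more in either library. A gene differed when the ratio reached 1 in size and the bounds did not overlap. No p-value was computed, since there is 1 group. Computation used scipy 1.17.1, numpy 2.4.6, pandas 2.3.3 and Python 3.11.15, figures matplotlib 3.10.9, and the rules were tested on simulated data. The p53 genes and the other lists were chosen with earlier results of these data known. Named in the text were all 31 genes and, of each other list, the 5 highest, those under FPKM 1 in both libraries and any that differed, except 1 gene that is not reported here; the marker lists of cell types are given by their range. Alternatives were other pseudocounts, thresholds and filters, rescaling, removal of a length trend, sums of reference transcripts, looser and stricter motif rules, and leaving out a replicate.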

Additional observations from a re-analysis of the deposited data

How the results depend on the processing

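The number of detected p53 genes was 28 or 29 under every detection rule tried, and 29 when either replicate was left out (lowest 29, highest 29). None of the p53 genes differed between libraries under the pseudocount, scaling, length, filter, status, transcript or fold-only settings, and 3 did at a bar of 1.5-fold, all 3 of which missed that bar after rescaling or removal of the length trend. The median log2 ratio, -0.04, turned to 0.11 with FPKM rescaled to a common sum, when that of all genes was 0.12. The cause of that shift was not tested further. With no filter on low values the median of the p53 genes was 0.0077, because TP63 (0.046) and SPATA18 (0.0098), both above -0.04, were added. The log2 difference in level of MDM2 over MDM4, 3.87, was 3.68 with a pseudocount of 1, which compresses the lower gene. Leaving out a replicate gave 3.79 to 3.95 for that pair, 0.42 to 0.82 for SESN2 over SESN1 and 2.46 to 2.87 for PLK2 over PLK3. Leaving out replicate 1 left BAX at 212 FPKM and FDXR at 104, and leaving out replicate 2 left them at 327 and 162. Of the 31 levels, 30 moved by less than 1 SD with own reference transcripts only, BAX being 156 FPKM, and 30 did with rescaling, TNFRSF10B being 28.8 FPKM. A leading transcript shared by both libraries was found in 26 genes. Counting assembled transcripts gave 25, because the short BAX transcript carries a different identifier in each library. Genes with a decamer in the promoter were 6 by exact match and 15 with 1 mismatch outside the fixed C and G. They were 1 for an exact full site and 3 for a full site with 1 mismatch per decamer, a rule chosen after seeing the data. No paired analysis was possible because both libraries belong to 1 group. Absolute depth is unknown, so no floor can be set for genes listed at 0, and 2 libraries give a rough SD only.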
